A study of Mus musculus with 6 samples.

Results

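Acetylation of lysine 27 of histone H3 (H3K27ac) was compared between ES48 and ES49, a pair of cell lines from EWS-FLI1-induced mouse Ewing sarcoma on the Balb/c background, over every peak that ChIP-seq gave on chromosomes 1 to 19. The members are the 25313 autosomal H3K27ac peaks of ES48 and the 29009 of ES49, 54322 of the 76477 peaks in the 5 peak lists of the series. Both lines carry EWS-FLI1, which was mapped through a FLAG antibody, and neither received a treatment. H3K27me3 was mapped in ES49 alone, and ES49 input DNA was not analysed here. No input of ES48 is among the samples of the series. Each line has 1 H3K27ac library made with the same antibody lot, and cells without EWS-FLI1 were not analysed here. No test of the lines is therefore possible, and what belongs to the line, the culture, the library, its depth or its peak calling cannot be told apart. Intervals are 95% exact Clopper-Pearson intervals that cover counting error only and treat neighbouring peaks as independent, which they are not.

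H3K27ac is written by the acetyltransferases p300 and CBP and marks active promoters and active enhancers, whereas Polycomb methylates the same lysine to H3K27me3 at silent genes, so 1 histone tail cannot carry both. Wide acetylated stretches lie at strongly used promoters and at enhancer clusters that set cell identity. EWS-FLI1, the fusion that drives Ewing sarcoma, is known in human tumours to bind repeats of an ETS motif and to recruit acetyltransferase there. Positions below are in mm9, counted from 1, and genes are not named since no annotation of mm9 was used.

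ES48 had fewer and wider peaks than ES49. The 25313 ES48 peaks covered 47.3 Mb and the 29009 ES49 peaks 35.1 Mb, so ES48 had 0.873 times as many peaks and 1.35 times the covered length. The median width was 1485 bp in ES48 (quartiles 705 and 2448) and 836 bp in ES49 (quartiles 451 and 1632). Peaks under 500 bp made up 12.4% of the ES48 list and 30.3% of the ES49 list, and those over 4 kb made up 7.601% and 2.31%. The wide class made up 24.8% of the covered length of ES48 and 10.8% of that of ES49. The distributions overlapped over most of their range, from the 5th percentile (391 and 365 bp) to the 95th (4732 and 3105 bp).

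The caller's scores levelled off in both lists. They began at 50.01 and ended at 3233.06 in each line, but 4843 ES48 peaks (19.1%) and 1686 ES49 peaks (5.81%) stood at exactly 3100, so the order among the strongest peaks, of ES48 above all, is largely lost. The median score was 554.5 in ES48 and 164.7 in ES49, and 7.72% of ES48 and 18.2% of ES49 peaks scored below 60. These values describe each list on its own. Scores were compared between the lines only as ranks, with ties taken in genome order.

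Acetylated sites were mostly common to the lines. Of the ES48 peaks 16847 (66.6%, 66.0 to 67.1) overlapped an ES49 peak by at least 1 bp, and of the ES49 peaks 19813 (68.3%, 67.8 to 68.8) overlapped an ES48 peak. The order of the lines is not stable. ES48 had the higher share when only the upper 50% by score was kept (82.8% against 77.1%) and with peaks of a line less than 1 kb apart joined first (75.02% against 70.97%). By length the lines were less alike in 1 direction: the 27.8 Mb acetylated in both were 58.7% of the ES48 and 79.1% of the ES49 covered length, and 50.8% of the 54.7 Mb covered in either.

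Much of what ES48 had beyond ES49 lay around sites that both lines had. ES48 covered 19.6 Mb that ES49 did not, of which 11.3 Mb flanked or filled gaps within shared peaks and 8.27 Mb was in ES48-only peaks. ES49 covered 7.35 Mb that ES48 did not, of which 1.80 Mb belonged to shared peaks and 5.55 Mb to ES49-only peaks.

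Sharing fell with the rank of the peak in both lines. In the top decile by score the shared share was 97.7% for ES48 (97.1 to 98.3) and 99.7% for ES49 (99.4 to 99.8). In the fifth decile the shares were 77.8% and 75.9%, in the seventh 49.6% and 51.9%, and in the lowest 26.0% and 35.5%. The ES48 top decile is a slice of tied scores taken in genome order. Among all peaks at 3100 or above, 4936 of 5037 in ES48 (98.0%) and 1762 of 1769 in ES49 (99.6%) were shared, which left 101 ES48 and 7 ES49 peaks of that class in a single line. ES49-only peaks were weak as a rule, with a median score of 67.2 against 392.7 for shared ones, and ES48-only peaks had 116.6 against 1391.

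**Figure D1:**
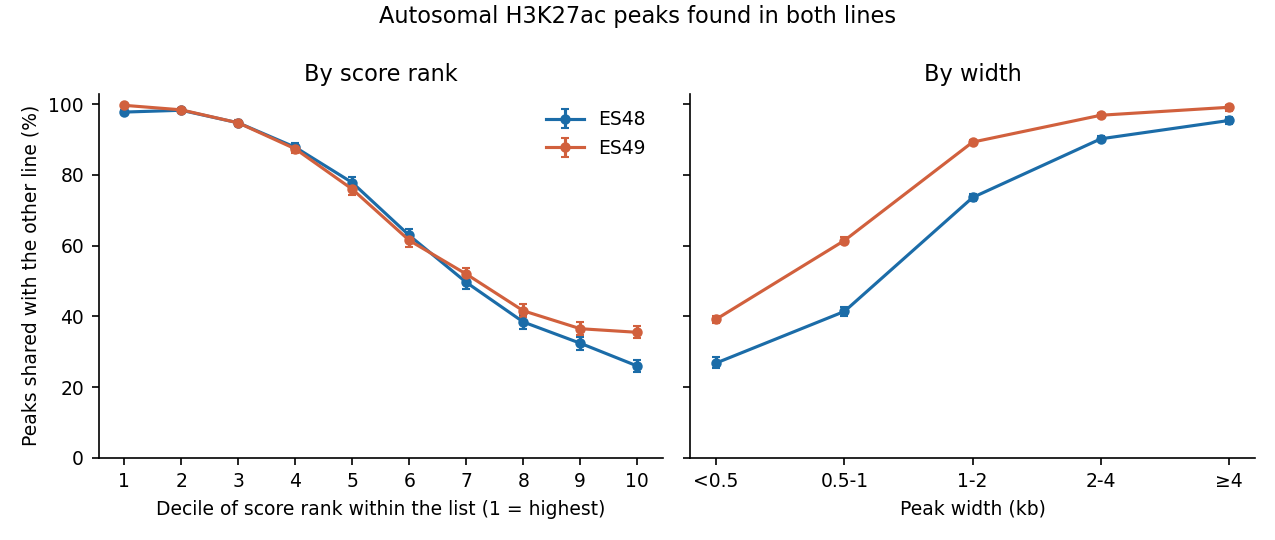
Percent of autosomal H3K27ac peaks (y axis) that overlap a peak of the other line, by decile of score rank within each list (left) and by peak width in kb (right), for ES48 (blue) and ES49 (orange), with 95% Clopper-Pearson intervals as bars. The curves by rank fall together from 97.7% and 99.7% in the top decile to 26.0% and 35.5% in the lowest, whereas by width ES49 lies above ES48 in every class.

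At a given width, ES49 peaks were shared more often. Among peaks from 1 to under 2 kb wide, the shared share was 73.6% of 7239 in ES48 and 89.3% of 7932 in ES49, and from 500 bp to under 1 kb the shares were 41.4% and 61.4%. With each list also cut into its upper and lower 50% by score, the gap was small in some width classes and stayed in others. This cut does not hold rank alike, since ranks can still differ between the lines within each part. For peaks from 1 to under 2 kb in the upper 50% of their list by score, the shares were 90.0% of 3711 in ES48 and 89.9% of 7767 in ES49. In the lower 50% they were 56.3% of 3528 and 58.2% of 165. From 2 to under 4 kb in the upper 50%, the share was 90.9% of 6953 in ES48 (90.2 to 91.5) and 96.9% of 4198 in ES49 (96.3 to 97.4). From 500 bp to under 1 kb it was 81.0% in both lines in the upper 50%, with only 63 such peaks in ES48, whereas in the lower 50% it was 41.0% of 5850 in ES48 (39.7 to 42.2) and 54.9% of 5568 in ES49 (53.6 to 56.2).

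A site acetylated in both lines was usually 1 peak in each, and ES48 peaks often spanned several of ES49. The shared peaks formed 16056 stretches, of which 12795 (79.7%) held 1 peak of each line. In 2526 stretches 1 ES48 peak met several ES49 peaks, up to 10, and in 456 stretches 1 ES49 peak met several of ES48, up to 4. The ES48 peak at chr5:74672224-74690428 is the most divided, with 18205 bp in ES48 and 10 ES49 peaks that cover 12596 bp of it. The widest ES48 peak, chr5:119303580-119332310, measured 28731 bp and met 5 ES49 peaks over 23645 bp. The widest ES49 peak, chr5:120118763-120137779, measured 19017 bp and lay wholly inside an ES48 peak of 24305 bp. These 3 were singled out after the values were seen.

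The difference in width held within the 12795 pairs. The ES48 median was 1890 bp and the ES49 median 1394 bp, and the median log2 ratio of ES48 to ES49 width was 0.34 (quartiles 0.09 and 0.69), a 1.27-fold greater width in ES48. The ES48 peak was the wider in 10398 pairs (81.3%). It was over 2-fold wider in 1895 (14.8%) and the ES49 peak was over 2-fold wider in 327 (2.56%). In 8089 pairs (63.2%) the ES49 peak lay entirely within its ES48 partner, and the median distance between the centres was 118 bp. The median log2 ratio rose from 0.25 for the 4300 pairs in the top 20% of the ES49 list to 1.12 for the 828 pairs in the lowest 20%. In the lowest group the median widths were 869.5 bp for the ES48 partner and 391 bp for that of ES49. How far the condition that both lines have a peak sets this rise was not tested.

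**Figure D2:**
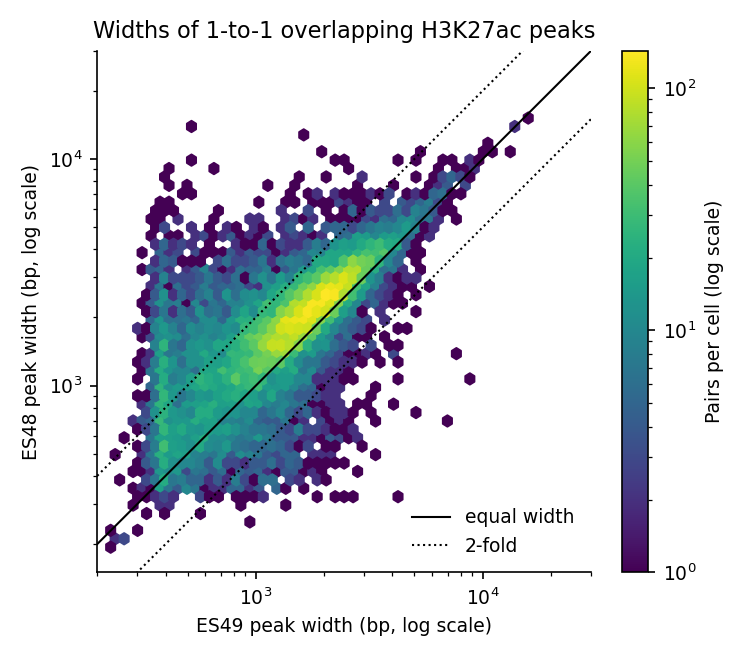
Width in bp of the ES48 peak (y axis, log scale) against the ES49 peak (x axis, log scale) in 12795 pairs that overlap each other and no other peak; colour gives the number of pairs per cell on a log scale, the solid line equal width and the dotted lines a 2-fold difference. Most pairs lie above the line of equal width (81.3%), and a column of narrow ES49 peaks near the left edge meets ES48 peaks of widely differing width.

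Ranks in the pairs were alike. Over the 12795 pairs Spearman's rho between the ES48 and ES49 scores was 0.79, and over the 9270 pairs with both scores below 3100 it was 0.67. For widths rho was 0.71. These are descriptions across peaks, which share their genome position and their sequence with their partner. Ranks are given as percentiles from the top, and they differed by a median of 9.67 points, with 307 pairs apart by 50 or more, 153 better placed in ES48 and 154 in ES49. Of the 1184 ES49 peaks of these pairs at 3100 or above, 1125 (95.02%) met an ES48 peak at that level, and of the 3466 such ES48 peaks 32.5% met an ES49 peak at that level. The ES49 partners of those 3466 had a median percentile of 9.28 (quartiles 4.64 and 15.6).

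The pairs ranked highest in both lists lay at chr8:129586970-129589478 (2509 bp in ES48, 2390 bp in ES49), chr1:153346798-153348717 (1920 and 1960 bp) and chr1:16607068-16610119 (3052 and 1556 bp). The next were chr1:9616344-9622315 (5972 and 5308 bp) and chr1:13361836-13364976 (3141 and 2836 bp). Only the chromosome 8 pair scored above 3100 in both lines. The second pair stood at 3100 in ES49, the third at 3100 in ES48 and the fourth and the fifth in both, so the place of these 4, all on chromosome 1, rests on genome order among ties. The pairs that parted most in rank were wide in 1 line and slight in the other. At chr5:35396941-35401250 ES48 had 4310 bp at rank 47, and ES49 had 397 bp at rank 28826. At chr1:135804245-135807409 ES48 had 3165 bp and ES49 389 bp, and at chr1:83094711-83099889 the widths were 5179 and 349 bp. Both of these ES48 peaks stood at 3100, at ranks 357 and 307 by genome order, so others among the 4843 tied peaks could take their place. In the opposite direction, ES49 had 2765 bp at chr14:56472256-56475020 with rank 3413, and ES48 had 333 bp there with rank 24335. ES49 had 2554 bp at chr7:87730708-87733261 against 316 bp in ES48, and 4115 bp at chr15:76908306-76912420 against 326 bp. Each of these 6 sites counts as shared, so presence alone hides such differences.

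Line-only peaks were narrow and often lay close to acetylation of the other line. The 8466 ES48-only peaks had a median width of 691.5 bp (quartiles 486 and 1181) and the 9196 of ES49 457 bp (quartiles 390.8 and 651). Their median distance to the nearest peak of the other line was 8012.5 bp in ES48 and 7490.5 bp in ES49. To the nearest shared peak of their own line it was 9539 and 8819.5 bp, so the closeness was not particular to the other line. Within 1 kb lay 1786 ES48-only peaks (21.1%) and 1526 of ES49 (16.6%). The lines parted at long range. At least 100 kb from any peak of the other line lay 1300 ES48-only peaks (15.4%) and 557 ES49-only peaks (6.06%).

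**Figure D3:**
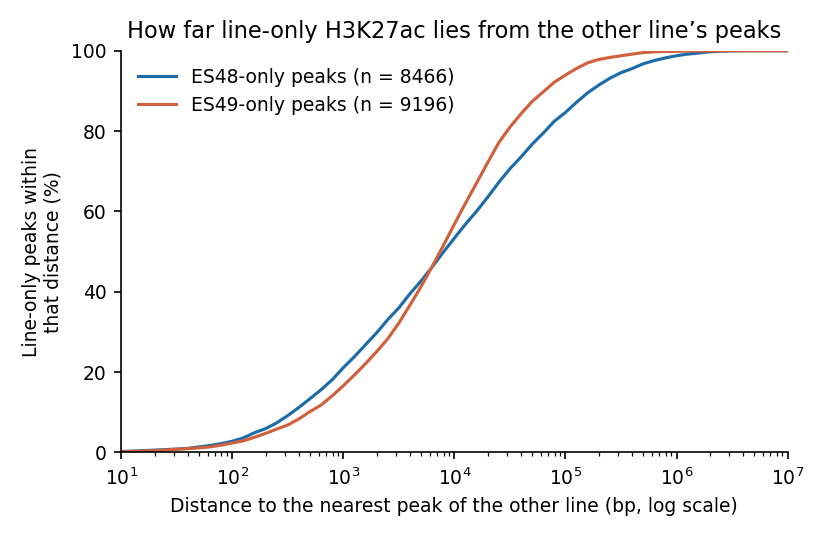
Cumulative percent of line-only H3K27ac peaks (y axis) within a given distance in bp of the nearest peak of the other line (x axis, log scale), for 8466 ES48-only peaks (blue) and 9196 ES49-only peaks (orange). The curves cross near the medians of 8012.5 and 7490.5 bp, and beyond that ES48-only peaks reach farther, with 15.4% against 6.06% at 100 kb or more.

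The strongest single-line sites of ES48 stood high in its list. The 5 with the highest scores were chr6:138365575-138372508 (6934 bp, rank 4 of 25313), chr8:73011748-73015620 and its neighbour chr8:73015627-73020342 (3873 and 4716 bp, ranks 27 and 61), chr9:61014285-61018145 (3861 bp, rank 68) and chr5:135997490-136002276 (4787 bp, rank 90). The first lay 661.9 kb and the chromosome 9 peak 200.3 kb from the nearest ES49 peak, whereas the chromosome 5 peak lay 3.79 kb from one. The second of the chromosome 8 neighbours overlapped H3K27me3 of ES49, and none of the 5 overlapped EWS-FLI1. The widest ES48-only peaks were chr1:33993506-34005107 (11602 bp), chr3:127735539-127744781 (9243 bp), chr4:28743956-28753088 (9133 bp), chr17:25887669-25896173 (8505 bp) and chr3:154228973-154236566 (7594 bp). The first of the chromosome 3 peaks held an ES48 EWS-FLI1 peak and lay 136.1 kb from ES49 acetylation, and the chromosome 4 peak lay only 0.449 kb from an ES49 peak.

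In ES49 the highest were chr13:46058367-46061513 (3147 bp, rank 74 of 29009, 571.5 kb from ES48 acetylation), chr1:78183835-78195698 (11864 bp), chr2:44963566-44966967 (3402 bp), chr2:91769832-91774168 (4337 bp) and chr8:60130215-60132699 (2485 bp). The widest included 2 of these, at chromosome 1 and at chr2:91769832-91774168, with chr16:43500168-43509408 (9241 bp), chr1:134021785-134026377 (4593 bp) and chr4:103111038-103115268 (4231 bp). None of these 8 peaks overlapped H3K27me3 or EWS-FLI1. Chr11:51249372-51251326 (1955 bp) completes the 7 ES49-only peaks at 3100 or above. All of these 7 but the chromosome 13 peak stood at exactly 3100. Which of them are named as the highest after it therefore rests on genome order among ties.

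Single-line acetylation also came in runs, here consecutive line-only peaks with no peak of the other line between them. Alone in their run stood 34.2% of the ES48-only and 30.2% of the ES49-only peaks, and runs of at least 5 numbered 253 in ES48 and 319 in ES49. The ES48 runs with the most covered length were chr12:13656999-15823996 (17 peaks, 35.4 kb), chr3:127606863-128901852 (22 peaks, 33.8 kb), chr8:10663599-11005855 (13 peaks, 23.3 kb), chr4:28743956-29296741 (11 peaks, 22.8 kb) and chr9:41174577-41669866 (17 peaks, 22.7 kb). Each held at least 1 peak at 3100 or above, and the run on chromosome 12 spanned 2167 kb with no ES49 peak.

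The ES49 runs with the most covered length covered 13.5 to 22.3 kb, less than the 22.7 to 35.4 kb of those in ES48, but by number of peaks ES49 had the longest run (28 peaks against 22) and slightly more runs of at least 10 (38 against 35). The 5 lay at chr13:45489668-46139093 (28 peaks, 22.3 kb), chr16:43472039-43540136 (9 peaks, 17.3 kb), chr1:78004162-78200834 (8 peaks, 16.4 kb), chr12:113385889-113688664 (18 peaks, 15.7 kb) and chr17:27373794-27639864 (12 peaks, 13.5 kb). The span of the last held 7 H3K27me3 peaks of ES49 and 4 EWS-FLI1 peaks of ES48 as well, the only such run of the 10 with more than 2 H3K27me3 peaks.

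Peaks were spread along the autosomes in the same uneven way in both lines. Over 2481 windows of 1 Mb, 1810 held acetylation in both lines, 150 in ES48 alone, 29 in ES49 alone and 492 in neither. Spearman's rho of the covered length per window was 0.94 over all windows, empty ones included, and 0.82 over the 1243 with at least 10 kb in either line, a description in which the windows of both lines share gene content and mappability. The 248 windows with the most acetylation held 43.7% of the covered length in ES48 and 49.0% in ES49. Of the 100 most acetylated windows of each line, 71 were in common. The median gap between neighbouring peaks was 14982.5 bp in ES48 and 9061 bp in ES49, and gaps of 1 Mb or more numbered 480 and 491. The longest stretch without a peak was chr14:87818443-98074488 in ES48 (10.3 Mb) and chr15:12783605-25341041 in ES49 (12.6 Mb).

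Windows that stood apart were more often higher in ES48. Each window's covered length, with 5 kb added to each side, was taken as a share of its line's total, in the 1243 windows with at least 10 kb in either line. Most of them (78.5%) lay within 1.5-fold. The ES48 share was over 2-fold higher in 56 windows (4.51%) and the ES49 share in 19 (1.53%). The floor of 10 kb was not scaled to the greater covered length of ES48, so a window enters more easily through ES48. The added 5 kb, also unscaled, is a larger share of the ES49 total and draws ratios towards a value that favours ES49. The counts depend on the measure, with 144 and 31 for the number of peaks and 142 and 31 with no length added, but ES48 had the more under each of the 4 alternatives tried.

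The ES48 windows of the largest ratio were chromosome 8 from 10000001 to 11000000 (19.9 kb against 0) and chromosome 12 from 15000001 to 16000000 (19.8 kb against 0), both overlapping a run given above. They were followed by chromosome 6 from 6000001 to 7000000 (34.5 against 3.15 kb), chromosome 19 from 25000001 to 26000000 (53.2 against 7.57 kb) and chromosome 2 from 43000001 to 44000000 (28.5 against 2.50 kb). For ES49 they were chromosome 13 from 40000001 to 41000000 (17.6 against 2.26 kb in ES48) and from 45000001 to 46000000 (23.9 against 5.15 kb). The others were chromosome 12 from 113000001 to 114000000 (59.996 against 22.599 kb) and from 109000001 to 110000000 (36.0 against 12.7 kb), and chromosome 1 from 78000001 to 79000000 (20.1 against 6.46 kb). Of the 19 windows higher in ES49, 5 lay on chromosome 13. Over that whole chromosome the ratio of ES48 to ES49 in their shares of covered length was 0.990. The count is not set against the number of tested windows on that chromosome, so no concentration is read from it. At least 10 kb in ES48 faced 0 in ES49 in 5 windows, and the reverse was found in 0. That floor was not scaled to covered length, of which ES48 had 1.35 times as much, so it is easier to reach in ES48.

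**Figure D4:**
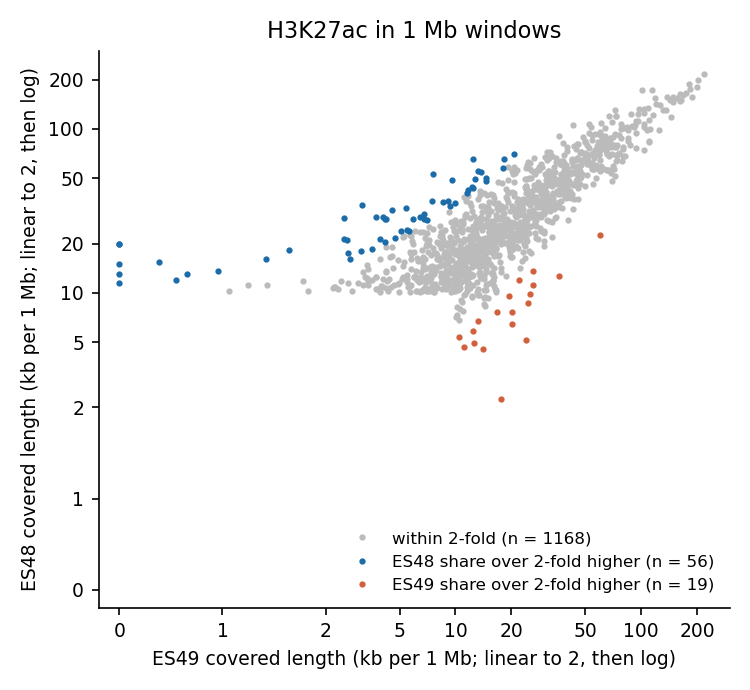
Covered length of H3K27ac in kb per 1 Mb window in ES48 (y axis) against ES49 (x axis), each axis linear to 2 kb and logarithmic above, for 1243 windows with at least 10 kb in either line. Blue marks the 56 windows whose share of the line's total is over 2-fold higher in ES48 and orange the 19 higher in ES49; 5 blue points stand at 0 in ES49.

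Taken whole, some chromosomes leaned to 1 line. Chromosome 11 took up 9.73% of the acetylated length in ES48 and 12.0% in ES49, a ratio of 0.814, the lowest of the 19 autosomes, followed by chromosome 15 (0.864) and chromosome 10 (0.889). At the other end stood chromosome 19 with 3.25% and 2.37%, a ratio of 1.37, then chromosome 18 (1.28), chromosome 14 (1.17) and chromosome 17 (1.17). The remaining 12 autosomes lay between 0.9 and 1.1. Chromosome 11 had 541 ES48-only and 1328 ES49-only peaks, and chromosome 19 had 342 and 86. The shared share of ES49 peaks ran from 58.6% on chromosome 11 to 87.2% on chromosome 19. Without chromosome 11 it was 69.5% over the genome, and that of ES48 was 65.7%.

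The lean was also present in the peaks that both lines had. The median log2 width ratio of ES48 to ES49 in pairs was 0.55 on chromosome 19 (364 pairs, ES48 wider in 92.9%) and 0.50 on chromosome 18. It was 0.28 on chromosome 11 (1185 pairs, 77.4%), 0.23 on chromosome 15 and 0.22 on chromosome 10. Chromosome 11 was not at the low end of this median. Chromosomes 16 (0.257) and 13 (0.267) lay below its 0.277, with ratios of covered shares of only 0.934 and 0.990. Across the 19 autosomes rho between this median and the ratio of covered shares was 0.90, both from the same libraries and the same peaks. Among the 12656 highest-ranked peaks of each list, the number in ES48 over that in ES49 was 0.867 on chromosome 11 and 1.23 on chromosome 19.

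Along chromosome 11 the lean was uneven. In its first 20 Mb ES48-only peaks outnumbered those of ES49 by 63 to 34, with 49 to 32 in the next 20 Mb. From 40 to 60 Mb the counts were 65 and 108, from 80 to 100 Mb 89 and 277, and from 100 to 120 Mb 180 and 599. Chromosome 15 had 22 and 15 in its first 20 Mb, 49 and 21 from 20 to 40 Mb and 47 and 17 from 40 to 60 Mb. It then had 87 and 192 from 60 to 80 Mb, 78 and 214 from 80 to 100 Mb and 14 and 60 beyond. On chromosome 19 ES48-only peaks were the more numerous in every piece, with 140 and 28 in the first 20 Mb and 107 and 37 from 40 to 60 Mb. H3K27me3 of ES49 moved with part of this: it had 23.3 peaks per Mb on chromosome 11 against a median of 6.13 over the autosomes, and 969 peaks from 100 to 120 Mb of that chromosome against 122 in its first 20 Mb. On chromosome 10, which also leaned to ES49, it had 2.29 per Mb. Chromosomes 5 and 9 had 13.8 and 13.2 per Mb with ratios of covered shares of 1.07 and 1.06, and chromosome 2 had 17.2 with 0.933. Between the same pieces of chromosome 11, all H3K27ac peaks rose as well, from 174 to 716 in ES48 and 157 to 1224 in ES49. The part of H3K27me3 in the lean was not tested.

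**Figure D5:**
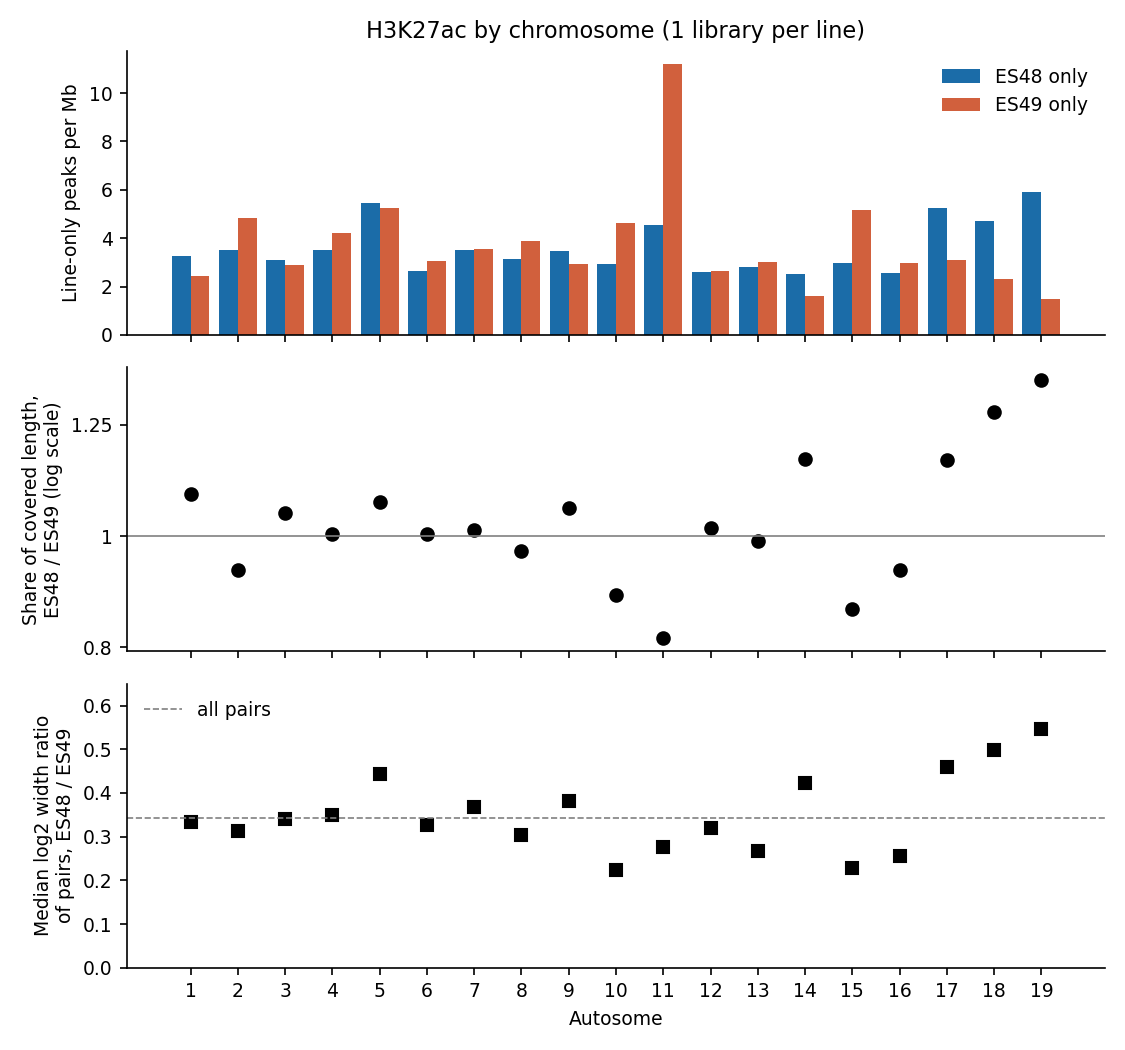
By autosome, line-only H3K27ac peaks per Mb in ES48 (blue bars) and ES49 (orange bars), the ratio of ES48 to ES49 in their shares of covered length (log scale, line at 1), and the median log2 width ratio of ES48 to ES49 in 1-to-1 pairs (dashed line, 0.34 over all pairs). Chromosome 11 has 11.2 ES49-only peaks per Mb and the lowest ratio of shares (0.814), and chromosome 19 has the highest ratio (1.37) and the highest width ratio (0.55).

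The Polycomb mark of ES49 came from another antibody, but it is not independent of the classes below: ES48-only peaks are those without ES49 acetylation, and the marks exclude each other on a histone tail. The values are therefore given as a description. H3K27me3 of ES49 overlapped 243 of 8466 ES48-only peaks (2.87%, 2.53 to 3.25) and 149 of 16847 shared ES48 peaks (0.884%, 0.749 to 1.04). ES48-only peaks were the narrower, and per Mb of acetylated length the numbers of overlapping peaks were 29.4 and 3.81. Each overlapping peak counts once whatever its width, so a count per Mb runs higher in a class of narrower peaks. It is therefore no correction for width. The ES48-only share was the higher on 18 of 19 autosomes. Among ES48 peaks in the upper 50% of their list by score, 79 of 1106 ES48-only peaks (7.14%, 5.70 to 8.82) and 97 of 11551 shared peaks (0.840%, 0.681 to 1.02) overlapped it. In ES49 itself it overlapped 70 of 9196 ES49-only peaks (0.761%, 0.594 to 0.961) and 132 of 19813 shared peaks (0.666%, 0.558 to 0.790), and these intervals overlap. Per Mb of acetylated length the numbers were 12.6 and 4.47, with the same limit, since ES49-only peaks were also narrower than shared ones. With both H3K27ac lists cut to their upper 50% by score and sharing taken anew, the shares were 0.812% of 3327 ES49-only and 0.429% of 11177 shared peaks. Those 3327 include peaks whose ES48 partner was removed by the cut. They are thus defined otherwise than the 1106 ES48-only peaks above. Whether ES48 carries H3K27me3 at the same places was not measured.

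EWS-FLI1 of the same line met few H3K27ac peaks of any kind. It overlapped 46 of 16847 shared ES48 peaks (0.273%, 0.200 to 0.364) and 14 of 8466 ES48-only peaks (0.165%, 0.0904 to 0.277), and these intervals overlap. In ES49 it overlapped 72 of 19813 shared peaks (0.363%, 0.284 to 0.457) and 0 of 9196 ES49-only peaks, for which 3 counts of the total would be 0.0326% and the Clopper-Pearson interval ends at 0.0401%. With 410 ES48 and 335 ES49 autosomal EWS-FLI1 peaks, these counts rest on few sites. Lists so short can meet only a small share of the H3K27ac peaks. The low shares therefore do not tell how much of EWS-FLI1 lies at acetylation. The 46 shared ES48 peaks had a median width of 3236 bp and the 14 ES48-only peaks 327.5 bp, against 1965 and 691.5 bp for all shared and all ES48-only peaks. Width and sharing moved together here and cannot be told apart in this comparison.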

How the data were processed

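H3K27ac ChIP-seq of ES48 and ES49 was described from the authors' deposited peak lists, with the EWS-FLI1 lists of both lines and the ES49 H3K27me3 list as further readouts. The submitters' processing notes name Bowtie 1.1.1, SAMtools 1.2 and the build mm9. The deposited positions are therefore read as mm9, per the labels. Peak names begin with MACS; how the caller was run is not given in the sources used here. The score in each deposited list is the caller's own, on a scale that no source states, and was used only to rank peaks within a list. The lists hold no read counts, so depth is unknown, and a deeper library could by itself give more or wider peaks.

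Chromosomes 1 to 19 were kept. Widths are end minus start. Sharing means an overlap of at least 1 bp, and a 1-to-1 pair is a peak of each line that meets no other. Computation was in Python (3.11.15) with scipy 1.17.1, pandas 2.3.3, numpy 2.4.6 and, for figures, matplotlib 3.10.9, and the interval functions were tested on simulated data. The regions named were set by rule (highest and widest line-only peaks, pairs highest in both lists or apart in rank, longest runs, extreme windows, longest gaps), except those marked. Measures and rules were chosen with earlier results of these data known. Peaks near gene starts and gene lists were planned and not run, because no mm9 annotation was at hand. The alternatives were other overlaps, joined peaks, cuts by score or width and other windows.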

Additional observations from a re-analysis of the deposited data

Results flagged for a closer look

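The comparisons above leave out the sex chromosomes, where H3K27ac was present in both lines: 657 ES48 peaks and 643 ES49 peaks lay on chromosomes X and Y. On chromosome X the shared share was 68.6% of 606 in ES48 and 78.0% of 587 in ES49, and on chromosome Y 40 of 51 ES48 and 56 of 56 ES49 peaks were. No group held enough samples to look for a library that stands apart.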

How the results depend on the processing

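Of 77 values under alternatives, 20 stayed within their counting interval, or within 1.5-fold for counts of windows, 57 moved further and 0 changed sign, each value taken alone. The order of 2 values did turn. ES48 took the higher shared share with the upper 50% by score, with joined peaks and, by 73.61% to 73.56%, with peaks within 1 kb, and the ES49 classes changed places for H3K27me3 within 1 kb. Values without such an interval (covered length, width ratio, rho, chromosome shares) count as moved however little they changed. The cause was not tested in any case.

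The shares below give ES48 first and ES49 second. The shared share of peaks was 64.97% and 66.41% with an overlap of at least 50% of the shorter peak, 64.2% and 73.1% with lists of equal length, 79.4% in ES49 with peaks at least 500 bp wide, and 75.02% and 70.97% with peaks less than 1 kb apart joined. With the upper 50% by score it was 82.8% and 77.1%. With 2 settings chosen after seeing the data it was 59.7% and 65.6% (midpoint inside a peak of the other line) and 65.7% and 69.5% (without chromosome 11). In the top decile by score it was 90.6% and 99.2% by midpoint and 96.4% in ES48 with peaks at least 500 bp wide. The covered length in common was 61.1% and 81.3% with the upper 50% by score, 57.2% and 83.4% with peaks at least 500 bp wide and 59.8% and 78.3% with joined peaks.

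The ratio of median widths was 1.499 with the upper 50% by score, 1.48 with joined peaks and 1.79 without the 1% widest and highest. The median log2 width ratio in pairs was 0.37, 0.33 and 0.35 in the same order, and rho of the scores 0.69, 0.76 and 0.77. Windows past 2-fold, higher in ES48 and in ES49, numbered 33 and 9 at 2 Mb, 144 and 31 by number of peaks and 142 and 31 with no length added, and those higher in ES49 numbered 33 at 500 kb. The ratio of chromosome shares was 0.780, 0.863, 1.28 and 1.39 for chromosomes 11, 15, 18 and 19 by number of peaks, and 0.848, 0.879, 1.23 and 1.33 with the upper 50% by score.

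H3K27me3 within 1 kb was found at 1.35% of shared ES48, 3.54% of ES48-only, 1.17% of shared ES49 and 1.098% of ES49-only peaks. With the upper 50% of both H3K27ac lists by score it overlapped 0.582% of shared ES48, 5.27% of ES48-only, 0.429% of shared ES49 and 0.812% of ES49-only peaks. Sharing was taken anew between the cut lists, so the line-only classes then hold peaks whose partner was removed. EWS-FLI1 lay within 1 kb of 0.515% of shared ES49 peaks, and with the upper 50% by score it overlapped 0.0902% of ES49-only peaks (3 of 3327), a class that then holds peaks whose ES48 partner was removed. No paired analysis was possible because each line has 1 library and no result comes from a test. Peaks near a gene start were not run.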
